A study of Homo sapiens with 8 samples.

Results

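The genes described here are 36 genes that serve S phase or the passage through G2 and mitosis, out of 58302 genes in a table of read counts from A549, a human lung adenocarcinoma cell line. They were found by matching the Ensembl identifier of each row to its symbol in GENCODE 44, and all 36 were present. Of these, 12 belong to S phase and 24 to G2 and mitosis. The 8 libraries came from cells transfected with a small interfering RNA against APEX1, the gene of the abasic site endonuclease APE1 (4 libraries, labelled siAPEX1), or with a control siRNA (4 libraries, labelled siCTRL). The labels give no other treatment, and the line is a single tumour model that divides continuously in culture. The RNA was read with a kit for small RNA that was adapted to also catch primary miRNA transcripts, and messenger RNAs made up a small part of the reads. The comparison asks how genes of the division cycle stood in cells given the APEX1 siRNA.

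In S phase a cell copies its genome. The MCM proteins form the ring that unwinds the double helix, ribonucleotide reductase and thymidylate synthase make the deoxynucleotides, and the FANCI and BRCA proteins protect and repair stalled forks. In G2 and mitosis the cyclins switch on CDK1, the Polo and Aurora kinases drive the assembly of the spindle, the BUB proteins hold back separation until each chromosome is attached, and condensin with topoisomerase II gives the chromosomes their compact form. Transcripts of both groups rise and fall with the cycle, so their level in bulk RNA follows the share of cells in each phase as well as the amount per cell. Fewer cells of a phase and less RNA per cell cannot be told apart in these libraries.

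The libraries held from 1348386 to 1949886 counted reads, and every siAPEX1 library was smaller than every siCTRL library. Nuclear protein-coding genes, with APEX1 included, took 13.4% to 15.7% of the counts, and less in every siAPEX1 library than in every siCTRL library. Without APEX1 the share of the siAPEX1 libraries would be lower still. APEX1 itself had 51, 61, 64 and 47 counts in the siCTRL libraries and 21150, 19470, 27916 and 20767 in the siAPEX1 libraries, the opposite of what the label names. Counts per gene do not separate the transcript from the transfected siRNA, so they did not measure the silencing. The study reports the silencing at the protein level, by Western blot of APE1 in A549 cells given the siRNA. Every direction given here follows the labels. Of 12 markers of A549 and of epithelium, all had counts, with a sum of 2018 to 2308 CPM in the siCTRL libraries and 1745 to 1918 CPM in the siAPEX1 libraries after the scaling described next. Of the 11 that could be tested, 5 were lower in the siAPEX1 libraries (KRT19, KRT18, KRT7, KRT8 and ALDH3A1, with log2 fold changes from -2.31 to -0.57) and 3 were higher (AKR1B10, AKR1C2 and CDH1, from 0.44 to 0.92), and the part of this in the results was not tested. Over all genes tested 15.8% were lower and 15.9% higher. Of 12 markers of blood, stromal and endothelial cells, 5 were at 0 in every library and the sum was 16 to 21 counts in the siCTRL libraries and 3 to 8 in the siAPEX1 libraries.

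The 36 genes were thinly read. Together they had 380, 451, 479 and 402 counts in the siCTRL libraries and 418, 410, 459 and 416 in the siAPEX1 libraries, so the raw sums of the groups overlapped (1712 against 1703). As CPM, that is, counts scaled to an equal library total, the sums were 212 to 246 in the siCTRL libraries and 283 to 310 in the siAPEX1 libraries. The median gene had 55 counts over all 8 libraries. A level is given from here on in CPM after scaling by the trimmed mean of M values (TMM), a method that sets the typical gene of each library equal.

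Only 12 of the 36 genes had enough counts for the test across all genes, the quasi-likelihood test of edgeR, adjusted by Benjamini-Hochberg over 5368 genes. These were MCM7 and RRM1 of S phase, and BUB3, CENPF, NUSAP1, TPX2, ASPM, MKI67, TOP2A, SMC2, SMC4 and NCAPD2 of G2 and mitosis. The other 24 had too few. A gene was kept when at least 4 libraries reached 6.14 CPM, here at the plain library total, before TMM scaling. Of the 12 tested, 8 reached it in all 8 libraries, and MCM7 passed with all 4 siAPEX1 libraries but only 2 siCTRL libraries, so for MCM7 the filter favoured the group in which it was high. No call made within this subset describes all 36 genes.

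CENPF, TOP2A, ASPM and SMC4 were higher in the siAPEX1 libraries at an adjusted p of at most 0.05, and no tested member was lower. All 4 belong to mitosis. They are 4 of 12 tested members, beside 15.9% of all genes tested that were higher and 15.8% that were lower. With a log2 fold change of at least 1 in addition, CENPF alone remained higher and 0 were lower, beside 3.6% and 5.68% of all genes. At an unadjusted p of at most 0.05 there were 7 members, all higher and MCM7 among them, beside 20.5% of all genes tested that were higher and 20.5% that were lower. DESeq2 gave the same 4 genes higher and 0 lower. The study calls its replicas biological and the labels name no separate cultures, so the p-values measure the spread between these libraries, part of which may be technical.

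**Figure D1:**
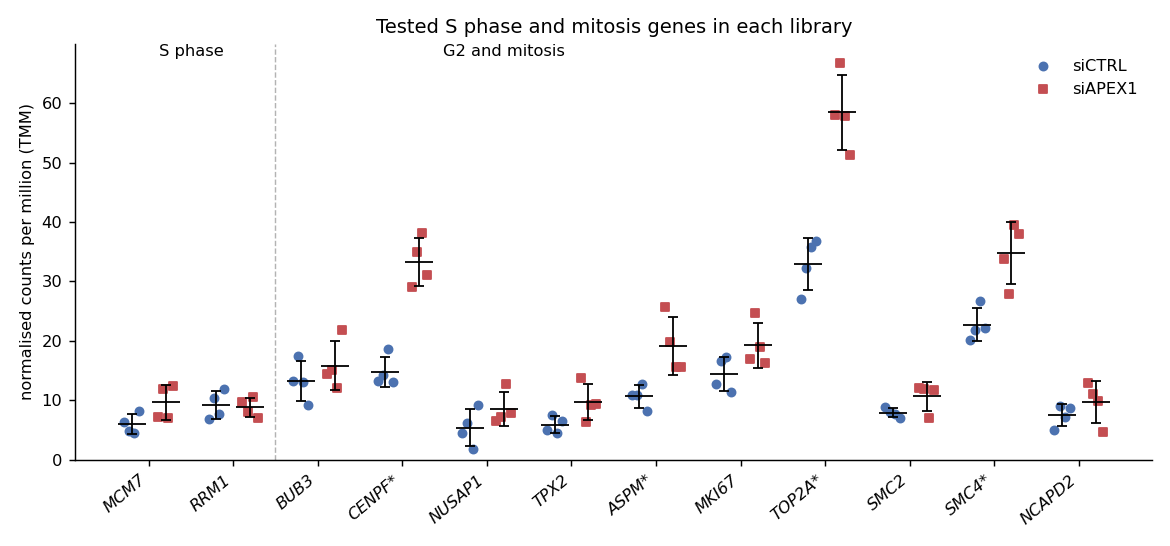
Normalised level in CPM (TMM, vertical axis) of the 12 genes with enough counts, in 4 siCTRL libraries (circles) and 4 siAPEX1 libraries (squares), with the mean and SD as a bar; an asterisk marks an adjusted p of at most 0.05. The 4 siAPEX1 points lie above all 4 siCTRL points for CENPF, ASPM, TOP2A and SMC4 and overlap them for the other 8 genes.

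The promoters of the 4 genes that passed the test are printed here, since sequence elements shared by mitotic promoters are well described. They run from 250 bases before to 50 bases after the start in RefSeq (GRCh38.p14). CENPF is at chr1:214602945-214603244 on the plus strand, ASPM at chr1:197146620-197146919 on the minus strand, TOP2A at chr17:40417847-40418146 on the minus strand and SMC4 at chr3:160399400-160399699 on the plus strand. Each is written in the direction of the gene, and capitals mark CCAAT and TTTGAA in either orientation (ATTGG and TTCAAA in reverse).
CENPF: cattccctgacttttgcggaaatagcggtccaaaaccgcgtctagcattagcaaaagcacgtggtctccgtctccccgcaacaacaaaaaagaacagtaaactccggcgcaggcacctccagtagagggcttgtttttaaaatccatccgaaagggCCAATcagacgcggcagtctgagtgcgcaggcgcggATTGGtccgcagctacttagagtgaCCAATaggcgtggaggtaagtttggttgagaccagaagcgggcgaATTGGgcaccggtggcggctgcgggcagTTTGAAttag
ASPM: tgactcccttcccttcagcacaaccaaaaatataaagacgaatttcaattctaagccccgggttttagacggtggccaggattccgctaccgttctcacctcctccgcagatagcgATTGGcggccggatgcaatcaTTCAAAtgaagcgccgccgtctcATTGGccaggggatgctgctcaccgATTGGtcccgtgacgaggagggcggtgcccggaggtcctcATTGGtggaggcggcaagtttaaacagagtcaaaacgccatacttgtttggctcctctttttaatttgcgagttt
TOP2A: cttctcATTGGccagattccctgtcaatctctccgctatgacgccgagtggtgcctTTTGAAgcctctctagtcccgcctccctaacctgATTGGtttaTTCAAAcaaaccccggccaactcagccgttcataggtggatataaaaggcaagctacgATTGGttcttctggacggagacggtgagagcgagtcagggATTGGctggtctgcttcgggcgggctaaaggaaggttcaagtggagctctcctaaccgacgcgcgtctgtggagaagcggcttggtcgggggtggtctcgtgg
SMC4: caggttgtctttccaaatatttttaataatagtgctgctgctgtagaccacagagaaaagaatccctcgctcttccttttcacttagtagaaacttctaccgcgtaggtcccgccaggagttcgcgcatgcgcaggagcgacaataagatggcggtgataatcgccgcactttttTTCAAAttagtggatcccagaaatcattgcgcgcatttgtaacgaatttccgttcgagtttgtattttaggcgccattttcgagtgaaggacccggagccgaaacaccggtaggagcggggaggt

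CENPF, ASPM and TOP2A each held 4 CCAAT words, and SMC4 held none. TTTGAA was present in all 4, at position 41 after the start in CENPF, -113 in ASPM, -194 and -151 in TOP2A and -75 in SMC4. The CCAAT box is bound by the factor NF-Y, and TTTGAA is the core of the cell cycle homology region through which the DREAM and MuvB complexes act on mitotic genes. Promoters of 30 of the 36 genes were matched, and MCM4, MCM5, FANCI, AURKA, BUB3 and TPX2 were not. Of the 21 promoters of G2 and mitosis genes, 17 (81.0%) held CCAAT and 16 (76.2%) TTTGAA, against 34.6% and 15.2% of 35116 promoters of the same length. Both words together were in 13 of the 21 and in 5.9% of all promoters. Of the 9 promoters of S phase genes, 5 held CCAAT and 1, that of RRM1, held TTTGAA.

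Words of another element were also sought. The words TTTGGCGC, TTTCGCGC and TTTCCCGC, forms of the site of the E2F factors that switch on S phase genes, were matched on both strands. At least 1 of these words was in 5 of the 9 S phase promoters, in 2 of the 21 of G2 and mitosis, and in 2.74% of all promoters. The words TTTGGCGC and the reverse of TTTCGCGC can share 4 bases, as they did in the MCM6 promoter. A match of letters is a description and says nothing of binding in these cells.

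Summed by phase, G2 and mitosis genes stood higher in the siAPEX1 libraries by more than S phase genes. The 24 G2 and mitosis genes summed to 152, 174, 182 and 175 CPM in the siCTRL libraries and 292, 279, 278 and 270 in the siAPEX1 libraries. Their group means were 171 ± 12.7 and 280 ± 8.75 CPM (SD, n = 4 each), a ratio of 1.64. Every siAPEX1 library lay above every siCTRL library. The 12 S phase genes summed to 34.4, 39.8, 35.3 and 42.8 CPM in the siCTRL libraries and 45.1, 46.9, 45.1 and 52.8 in the siAPEX1 libraries. Those means were 38.1 ± 3.90 and 47.5 ± 3.66 CPM (SD, n = 4 each), a ratio of 1.25, and the groups again did not overlap. These sums are descriptions without a test, because the genes were chosen with earlier results known.

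The sums depended on how libraries were scaled. With library size alone, the log2 ratio of the G2 and mitosis sum was 0.38 in place of 0.71, and that of the S phase sum was -0.017 in place of 0.32. Under that scaling the median of all genes tested moved from 0.00 to -0.34. The sums also depended on their most counted gene. Without RRM1 the log2 ratio of the S phase sum at TMM scaling was 0.42 in place of 0.32. Without TOP2A that of the G2 and mitosis sum was 0.68 in place of 0.71. The share of S phase counts among the counts of the 36 genes needs no scaling, since both parts come from the same library. S phase genes took 18.4%, 18.6%, 16.3% and 19.7% of them in the siCTRL libraries and 13.4%, 14.4%, 13.9% and 16.3% in the siAPEX1 libraries. The means were 18.2% ± 1.41 and 14.5% ± 1.28 (SD, n = 4 each). The highest siAPEX1 library (exact Clopper-Pearson 95% interval 12.9% to 20.3%) stood level with the lowest siCTRL library (13.1% to 19.9%). The difference between phases was not tested.

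**Figure D2:**
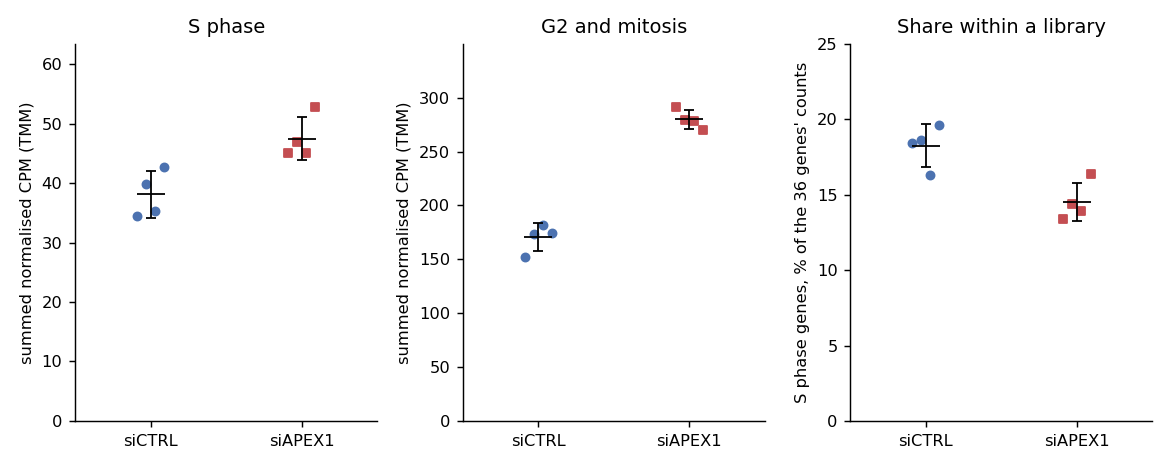
Summed level of the 12 S phase genes and the 24 G2 and mitosis genes in CPM (TMM), and the S phase genes' percent of the counts of all 36 genes, each in 4 siCTRL libraries (circles) and 4 siAPEX1 libraries (squares), with the mean and SD as a bar. Both sums are higher in every siAPEX1 library, by a ratio of 1.25 and 1.64, and the S phase percent is lower on average, 14.5% against 18.2%, with 1 library of each group at 16.3%.

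Among the helicase genes only MCM7 could be tested. The 6 MCM genes together had 35, 32, 34 and 37 counts in the siCTRL libraries and 24, 28, 22 and 32 in the siAPEX1 libraries. In CPM the means were 16.95 ± 2.25 and 20.5 ± 4.01 (SD, n = 4 each), and the groups overlapped. MCM7, a subunit of the ring that also carries 3 miRNA genes within its bounds, had 13, 10, 10 and 15 counts and 9, 15, 10 and 16 counts, in that order of groups. Its CPM was 5.94 ± 1.67 and 9.66 ± 2.91 (SD, n = 4 each), with a log2 fold change of 0.71 (SE 0.294, edgeR adjusted p = 0.0619), and its libraries overlapped.

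The other 5 helicase subunits had 10 to 59 counts over all libraries. For these and the other untested genes the pooled counts of each group were compared at the TMM-scaled library sizes, with an exact binomial 95% interval that covers counting error only. MCM3 had 39 pooled counts in the siCTRL libraries and 20 in the siAPEX1 libraries, a log2 ratio of -0.31 (interval -1.16 to 0.50). MCM6 had 17 and 6 (log2 ratio -0.85, interval -2.48 to 0.56), MCM4 20 and 18 (0.50, -0.50 to 1.497), MCM5 8 and 8 (0.66, -0.96 to 2.27) and MCM2 6 and 4 (0.07, -2.20 to 2.15). Each of these 5 intervals spans 0.

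The genes of deoxynucleotide synthesis were the role with the lowest ratio. RRM1, RRM2 and TYMS together had 22, 35, 30 and 28 counts in the siCTRL libraries and 16, 13, 21 and 14 in the siAPEX1 libraries, and in CPM a ratio of 0.871 with overlapping groups. RRM1 (ENSG00000167325, chr11:4094707-4138932), the large subunit of ribonucleotide reductase, had 14, 22, 17 and 22 counts against 12, 10, 15 and 9. Its levels were 9.23 ± 2.34 and 8.79 ± 1.62 CPM (SD, n = 4 each), and its log2 fold change was -0.05 (SE 0.267, 95% interval -0.59 to 0.49, edgeR adjusted p = 0.911). With library size alone the log2 fold change of RRM1 was -0.38, and its sign turned when some single libraries were left out.

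RRM2, the small subunit that sets the pace of the enzyme through the cycle, had the lowest ratio of the 36. It had 4, 2, 5 and 0 counts in the siCTRL libraries and 0, 0, 1 and 1 in the siAPEX1 libraries. The pooled counts of 11 and 2 gave a log2 ratio of -1.80, with an interval from -5.02 to 0.39 that spans 0. TYMS, thymidylate synthase, had 4, 11, 8 and 6 counts and 4, 3, 5 and 4 counts, with a log2 ratio of -0.20 (interval -1.18 to 0.73). At this depth a difference was not detectable for either gene.

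TYMS (ENSG00000176890, chr18:657653-673578, plus strand) shares exons with genes of the opposite strand. Of its 2421 exon bases, 193 lie in exons of TYMSOS and 967, or 39.9%, in exons of ENOSF1. TYMSOS, an antisense lncRNA, had 3, 1, 6 and 0 counts in the siCTRL libraries and 9, 15, 12 and 13 in the siAPEX1 libraries. The log2 fold change was 2.87 (SE 0.437, edgeR adjusted p = 1.28e-06), and the groups did not overlap. TYMSOS reached the filter in 4 siAPEX1 libraries and 0 siCTRL libraries, so it was tested only through the group in which it was high. Whether the counting used strand is not given in the sources used here, so reads of the shared bases cannot be told apart between the strands.

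The fork repair genes had the highest summed ratio of the S phase roles. FANCI, BRCA1 and BRCA2 together had 13, 17, 14 and 14 counts in the siCTRL libraries and 16, 18, 21 and 22 in the siAPEX1 libraries. In CPM that was 7.09 ± 0.857 and 14.8 ± 1.75 (SD, n = 4 each), a ratio of 2.08 without overlap. BRCA1, a ubiquitin ligase of homologous recombination, had 1, 5, 5 and 4 counts against 9, 5, 8 and 4, and every siAPEX1 library stood above every siCTRL library in CPM. The log2 ratio of its pooled counts, 15 and 26, was 1.45 (interval 0.48 to 2.47). FANCI, which clamps onto DNA at crosslinks with its partner FANCD2, had 27 and 39 pooled counts (log2 ratio 1.19, interval 0.44 to 1.95). BRCA2 had 16 and 12 (0.24, -0.97 to 1.41).

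In G2, the cyclins and CDK1 were near the lower limit of the data. CDK1, the kinase that starts mitosis, had 6, 9, 4 and 6 counts in the siCTRL libraries and 12, 3, 11 and 10 in the siAPEX1 libraries. Its pooled log2 ratio was 1.18 (interval 0.41 to 1.98), and the siAPEX1 library with 3 counts lay among the siCTRL libraries. The intervals of the cyclins that activate it all spanned 0 and overlapped that of CDK1. CCNB1 had 31 and 20 pooled counts (log2 ratio 0.02, interval -0.87 to 0.88), CCNB2 19 and 14 (0.21, -0.89 to 1.29) and CCNA2 9 and 3 (-0.93, -3.45 to 1.07).

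The mitotic kinases gave no detectable difference. PLK1, the Polo kinase, had 15 pooled counts in the siCTRL libraries and 14 in the siAPEX1 libraries (log2 ratio 0.56, interval -0.61 to 1.71). AURKA, the kinase of the spindle poles, had 24 and 15 (-0.02, -1.06 to 0.97), and AURKB, the kinase of the chromosomal passenger complex, had 10 and 4 (-0.67, -2.79 to 1.13). The 3 genes together summed to 6.01 ± 0.810 and 6.31 ± 1.70 CPM (SD, n = 4 each).

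Of the spindle checkpoint genes BUB3 alone was tested. This WD40 protein, which brings BUB1 and BUBR1 to the kinetochore, had 27, 37, 29 and 17 counts in the siCTRL libraries and 18, 19, 17 and 28 in the siAPEX1 libraries. The log2 fold change was 0.23 (SE 0.223, 95% interval -0.22 to 0.68, edgeR adjusted p = 0.467), and with library size alone it was -0.10. The groups overlapped. BUB1 had 18 and 21 pooled counts (log2 ratio 0.88, interval -0.10 to 1.87) and BUB1B, the gene of BUBR1, 4 and 7 (1.46, -0.51 to 3.68).

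The kinetochore proteins and kinesins had the highest ratio of any role. The 5 genes together had 48, 53, 74 and 47 counts in the siCTRL libraries and 73, 80, 84 and 79 in the siAPEX1 libraries. In CPM they summed to 26.9 ± 4.48 and 60.7 ± 2.19 (SD, n = 4 each), a ratio of 2.26 without overlap. All 5 genes had pooled intervals above 0 under TMM scaling, while at library sizes alone that of KIF23 spanned 0 (-0.15 to 1.27). Those intervals cover counting error only, and only CENPF had enough counts for the test. No share over all genes was worked out to set beside the 5.

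CENPF (ENSG00000117724, chr1:214603185-214664574) encodes a large coiled-coil protein that gathers at the kinetochore in late G2. It had 27, 30, 41 and 24 counts in the siCTRL libraries and 36, 44, 54 and 40 in the siAPEX1 libraries, or 14.8 ± 2.60 and 33.3 ± 4.04 CPM (SD, n = 4 each). The log2 fold change was 1.16 (SE 0.172, edgeR adjusted p = 7.01e-07). Every siAPEX1 library was above every siCTRL library in CPM, although the raw counts of 36 and 40 lay below the highest siCTRL count. With library size alone the log2 fold change was 0.83 and still passed the test.

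The motors had fewer counts. CENPE, the kinesin that carries chromosomes to the spindle equator, had 3, 5, 7 and 4 counts in the siCTRL libraries and 8, 5, 9 and 7 in the siAPEX1 libraries (pooled log2 ratio 1.27, interval 0.38 to 2.18). KIF20B, a kinesin of late cytokinesis, had 7, 6, 11 and 8 against 8, 12, 12 and 13 (1.147, 0.46 to 1.85). In both genes all siAPEX1 libraries stood above all siCTRL libraries in CPM at TMM scaling. At plain library totals the groups of CENPE overlapped. KIF11, the motor that pushes the spindle poles apart, had 16 and 29 pooled counts (1.51, 0.58 to 2.49), and KIF23, of the central spindle, had 33 and 39 (0.90, 0.19 to 1.61), both with overlapping groups.

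Without overlap between the groups in CPM at TMM scaling there were 7 of the 36 genes with every siAPEX1 library higher, namely CENPF, TOP2A, ASPM, SMC4, BRCA1, CENPE and KIF20B, and 0 with every one lower. Of these, BRCA1, CENPE and KIF20B had too few counts for the test. No share over all genes with counts was worked out to set beside the 7 of 36. At plain library totals the groups of ASPM, SMC4 and CENPE overlapped, so their separation was seen only with the TMM scaling. Of the 12 tested genes there were 4 without overlap at TMM scaling. Beside these, 14.0% of all genes tested had every siAPEX1 library above and 14.9% every one below. When every gene with a count was put into the fit, FANCI (edgeR adjusted p = 0.0477), KIF11 (0.0307) and KIF20B (0.0331) were called higher as well. That made 7 of 36 members, beside 3.16% of the 22272 genes in that fit that were higher and 5.06% that were lower. Genes entered that fit from a total of 1 count, while every member had at least 10 and the median member 55. The shares thus come from sets of unlike depth and do not set the members apart.

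**Figure D3:**
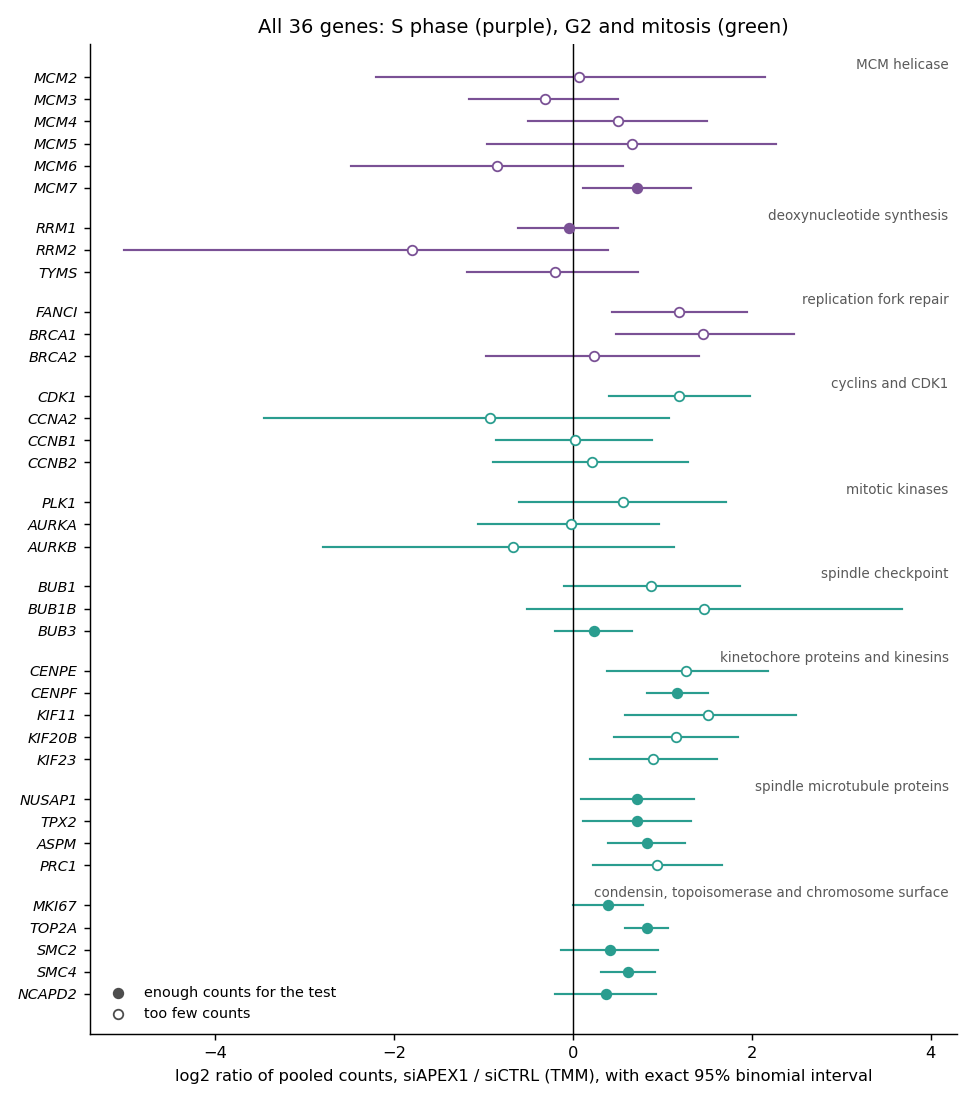
Log2 ratio of pooled counts, siAPEX1 over siCTRL at TMM-scaled library sizes (horizontal axis), for the 12 S phase genes (purple) and the 24 G2 and mitosis genes (green) by role, with exact 95% binomial intervals; filled points had enough counts for the test. Of the 36 points, 28 lie above 0. The intervals, which cover counting error only, lie wholly above 0 for 15 genes, span 0 for 21 and lie wholly below for none. The same share over all genes was not worked out.

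By this measure 21 of the 24 G2 and mitosis genes and 7 of the 12 S phase genes had a ratio above 0, with medians of 0.72 and 0.16. The intervals of 12 and 3 of them lay wholly above 0. At library sizes alone 18 of 24 and 5 of 12 were above 0, and the intervals of 7 and 2. These intervals leave out the spread between libraries. No share over all genes was worked out to set beside these counts, so they do not set the members apart from other genes. The S phase genes below 0 under TMM scaling were MCM3, MCM6, RRM1, RRM2 and TYMS, and those of G2 and mitosis were CCNA2, AURKA and AURKB.

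Among the spindle microtubule proteins 1 of 3 tested genes passed the test. ASPM (ENSG00000066279, chr1:197084121-197146694), which holds microtubules together at the spindle poles, had 22, 23, 28 and 15 counts in the siCTRL libraries and 32, 25, 22 and 20 in the siAPEX1 libraries. Its CPM was 10.6 ± 1.88 and 19.2 ± 4.85 (SD, n = 4 each), with a log2 fold change of 0.82 (SE 0.217, edgeR adjusted p = 0.00288). The groups did not overlap in CPM at TMM scaling, but did at plain library totals. With library size alone it was 0.49 and no longer passed.

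TPX2, which activates Aurora A on the spindle, had 10, 16, 10 and 12 counts in the siCTRL libraries and 17, 8, 13 and 12 in the siAPEX1 libraries (log2 fold change 0.71, SE 0.292, edgeR adjusted p = 0.0599). NUSAP1, a protein that bundles microtubules near chromatin, had 9, 13, 4 and 17 against 8, 9, 18 and 10 (0.71, SE 0.341, edgeR adjusted p = 0.109). Both missed the threshold and their groups overlapped. PRC1, which crosslinks microtubules of the central spindle, had 32 and 39 pooled counts (log2 ratio 0.94, interval 0.23 to 1.66). Both NUSAP1 and PRC1 share most of their exon bases, 81.4% and 57.6%, with a readthrough gene of the same strand in GENCODE 44 that has no row in the table.

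All 5 genes of chromosome structure could be tested, and 2 of these passed. TOP2A (ENSG00000131747, chr17:40388525-40417896), the topoisomerase that untangles sister chromatids and the member with the most reads, had 55, 68, 79 and 68 counts in the siCTRL libraries and 72, 84, 82 and 66 in the siAPEX1 libraries. Its level was 33.0 ± 4.41 and 58.4 ± 6.34 CPM (SD, n = 4 each), with a log2 fold change of 0.83 (SE 0.130, edgeR adjusted p = 2.55e-06). The raw counts overlapped and the CPM did not. With library size alone it was 0.49 and still passed.

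SMC4 (ENSG00000113810, chr3:160399274-160434954), a core subunit of condensin, had 41, 46, 59 and 41 counts in the siCTRL libraries and 42, 35, 56 and 49 in the siAPEX1 libraries. In CPM these were 22.7 ± 2.82 and 34.8 ± 5.24 (SD, n = 4 each). The log2 fold change was 0.61 (SE 0.156, edgeR adjusted p = 0.00196). The groups were apart in CPM at TMM scaling, but overlapped at plain library totals. With library size alone it was 0.28 and no longer passed. Of its 8164 exon bases, 1553 (19.0%) lie in exons of a gene of the opposite strand, which had at most 4 counts per library. As with TYMS, reads of shared bases cannot be told apart between the strands.

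The other condensin genes did not pass. SMC2, the partner of SMC4 in the condensin ring, had 18, 17, 17 and 13 counts in the siCTRL libraries and 15, 15, 10 and 15 in the siAPEX1 libraries (log2 fold change 0.41, SE 0.257, edgeR adjusted p = 0.235). NCAPD2, a regulatory subunit, had 10, 19, 16 and 16 against 16, 14, 14 and 6 (0.37, SE 0.286, edgeR adjusted p = 0.359). MKI67, the source of the Ki-67 antigen that coats mitotic chromosomes and serves as the usual mark of dividing cells, had 26, 35, 38 and 21 counts against 21, 31, 27 and 21. Its CPM was 14.5 ± 2.86 and 19.2 ± 3.79 (SD, n = 4 each), and its log2 fold change of 0.39 (95% interval -0.01 to 0.80) missed the threshold (edgeR adjusted p = 0.136).

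**Figure D4:**
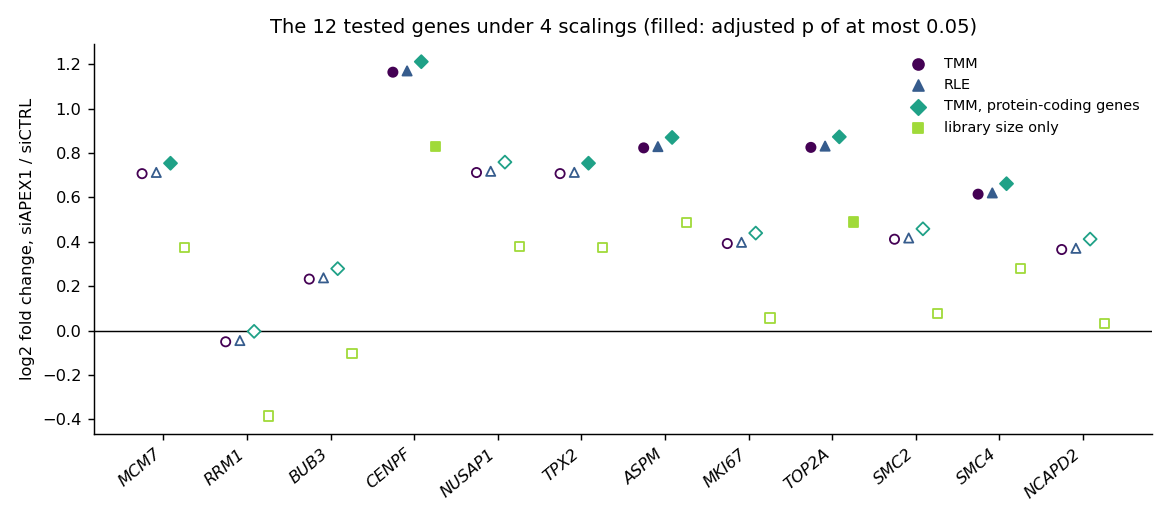
Log2 fold change, siAPEX1 over siCTRL (vertical axis), of the 12 tested genes under TMM, RLE, TMM over protein-coding genes, and library size alone; filled points have an adjusted p of at most 0.05. The first 3 scalings lie close together for each gene, while library size alone lowers all 12, keeps 2 calls (CENPF and TOP2A) and puts BUB3 at -0.10.

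Levels can be compared between genes only per length, here CPM per kilobase of the canonical transcript. In the siCTRL libraries TOP2A stood highest at 5.79, followed by SMC4 at 4.44, RRM1 at 2.94, MCM7 at 2.41 and NUSAP1 at 2.39. The lowest were BUB1B at 0.136, BRCA2 at 0.164 and MCM2 at 0.211. Longer transcripts had more counts, with a Spearman correlation of 0.42 across the 36 genes, and the median canonical length was 5405.5 bases among tested members against 3446 among the others.

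Length also ran with the ratio. Over 4856 tested protein-coding genes the median log2 fold change was -0.14 in the shortest of 5 equal groups by length (up to 1792 bases) and 0.08 in the longest (from 6500 bases), with a Spearman correlation of 0.15 across genes, which are not independent replicates. The share called higher was 8.02% in the shortest group and 15.9% in the longest, and the share called lower 21.8% and 11.8%. Across the 36 genes the correlation of pooled log2 ratio with length was 0.41, all measured in the same 8 libraries at 1 scaling. All 14 members of at least 4385 bases had a ratio above 0, as did 14 of the 22 shorter ones. No share of all genes above 0 by length was worked out, so these counts do not set the members apart. The median length was 3446 bases for the S phase genes and 3715.5 for the G2 and mitosis genes. The part of length in these ratios was not tested.

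**Figure D5:**
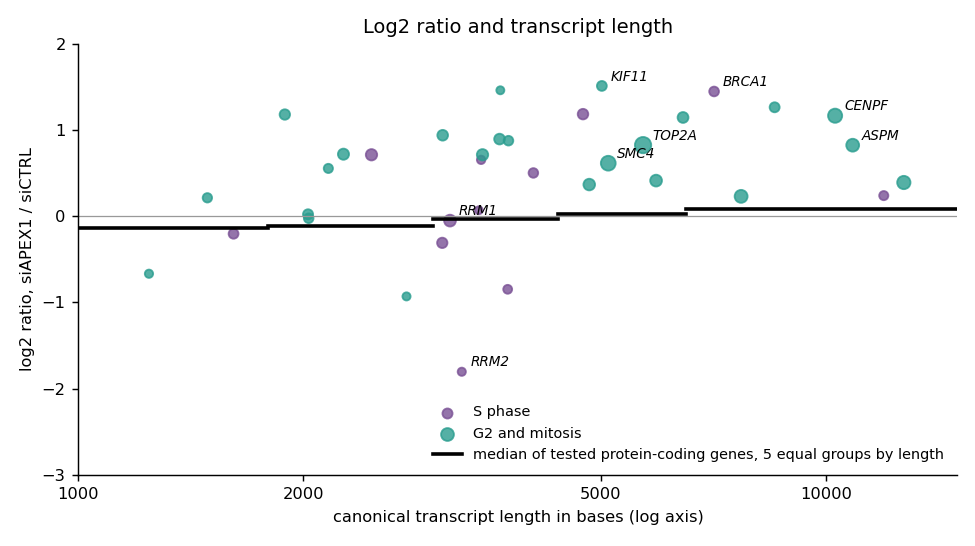
Pooled log2 ratio, siAPEX1 over siCTRL at TMM scaling (vertical axis), against canonical transcript length in bases (log axis) for S phase genes (purple) and G2 and mitosis genes (green), with larger points for more counts; black lines give the median log2 fold change of tested protein-coding genes in 5 equal groups by length. The lines rise from -0.14 to 0.08, and most points lie above them, with RRM2 lowest at -1.80.

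Several members carry small RNA genes within their bounds, and some of these had more counts than the host. MCM7 contains MIR106B, MIR93 and MIR25, and SMC4 contains MIR15B and MIR16-2. The leading mature strands are printed because they fall into seed families, a seed being bases 2 to 8, in capitals (RefSeq, GRCh38.p14).
miR-106b-5p: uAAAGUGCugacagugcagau
miR-93-5p: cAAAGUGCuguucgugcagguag
miR-25-3p: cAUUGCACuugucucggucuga
miR-15b-5p: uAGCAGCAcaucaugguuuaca
miR-16-5p: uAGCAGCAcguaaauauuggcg

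The seed AAAGUGC is shared by miR-106b-5p and miR-93-5p, and AGCAGCA by miR-15b-5p and miR-16-5p, while miR-25-3p has AUUGCAC. Counts per gene do not separate the arms or the precursor, and miR-16-5p is also made from another gene, MIR16-1, so its assignment is uncertain. MIR25 had 1832 to 2472 counts in the siCTRL libraries and 1072 to 1584 in the siAPEX1 libraries, with a log2 fold change of 0.05 (SE 0.0951, edgeR adjusted p = 0.718). MIR93, which shares 29 bases with an exon of MCM7, had 234 to 494 and 137 to 219 (-0.34, SE 0.133, edgeR adjusted p = 0.0483), and its groups overlapped. MIR106B had 57 to 85 and 29 to 52 (-0.18, SE 0.151, edgeR adjusted p = 0.397). So of the miRNA genes in MCM7, 1 was lower and 2 did not pass the test, beside a host at 0.71 that missed it.

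In SMC4, MIR16-2 had 43, 71, 71 and 37 counts in the siCTRL libraries and 43, 47, 56 and 57 in the siAPEX1 libraries. The log2 fold change was 0.53 (SE 0.159, edgeR adjusted p = 0.00881), and the CPM of the groups did not overlap. MIR15B, its neighbour in the same cluster, had 117 to 151 and 57 to 99 (-0.14, SE 0.120, edgeR adjusted p = 0.416). NCAPD2 contains SCARNA10, a guide RNA of Cajal bodies, which had 44, 41, 30 and 34 counts against 30, 48, 29 and 42 (0.65, SE 0.187, edgeR adjusted p = 0.00582), with overlapping groups.

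Further genes of the same phases were looked at in wider lists. Of 63 other S phase genes 9 could be tested. Beside 15.9% of all genes tested that were higher and 15.8% that were lower, 3 of the 9 were higher and 0 lower. These were ATR, the kinase that answers stalled forks (log2 fold change 0.93, SE 0.295, edgeR adjusted p = 0.0133), RRM2B, the ribonucleotide reductase subunit made outside S phase (0.61, SE 0.155, edgeR adjusted p = 0.00202), and MCM8, a helicase of recombination (0.74, SE 0.293, edgeR adjusted p = 0.0497). ATR and MCM8 reached the filter in all 4 siAPEX1 libraries but in 2 siCTRL libraries, so both were tested only through the group in which they were high.

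Of 70 other mitosis genes 15 could be tested, and 8 were higher and 1 lower, beside 15.9% and 15.8% of all genes tested. ECT2, the exchange factor that starts the cleavage furrow (0.70), ANLN, the scaffold of that furrow (1.16), WEE1, the kinase that restrains CDK1 (1.003), CKS2, a subunit of CDK complexes (1.02), SMC3 of cohesin (0.44), CKAP5, a microtubule polymerase (0.49), and PTTG1, securin (0.82), rose on the log2 scale. SMC1A, the partner of SMC3 in cohesin, fell by 0.88 on that scale. ANLN, CKS2 and PTTG1 reached the filter in all 4 siAPEX1 libraries but in 1, 3 and 0 siCTRL libraries, and were likewise tested only through the group in which they were high. Of 24 transcription factors of the cell cycle (E2F and pocket proteins, DREAM, MYB and FOXM1), 4 could be tested with edgeR and 0 were called, with 1 at an unadjusted p of at most 0.05. Over all genes tested 15.9% were called higher and 15.8% lower, and 20.5% in each direction at that unadjusted p.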

How the data were processed

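RNA of A549 cells was sequenced in 4 siCTRL and 4 siAPEX1 libraries, grouped by their labels. The values are whole-number counts per gene, deposited by the authors without normalization. Per the labels and the study's methods, the authors aligned single-end reads to GRCh38 with STAR 2.5.3a and counted them with its GeneCounts function; the annotation release and the strand column are not given in the sources used here. Of 58302 identifiers, 57532 matched GENCODE 44.

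Differential expression was tested with edgeR 4.0.16 (R 4.3.3, limma 3.58.1) on all 8 libraries, with TMM factors, filterByExpr (minimum count 10, minimum total 15), its quasi-likelihood test and p-values adjusted by Benjamini-Hochberg over the 5368 genes kept. The common biological coefficient of variation was 0.0832. Between 1348386 and 1949886 reads per library set the precision. Pooled counts were compared with exact binomial 95% intervals, which cover counting error only. A group was marked as under the floor when none of its libraries had more than 3 counts of the gene. This held for MCM2 and BUB1B in both groups and for MCM5 in siCTRL. It also held for MCM6, RRM2, CCNA2 and AURKB in siAPEX1. Members and lists, including those of further cell cycle genes, were chosen with earlier results of these data known. Named are the 36 members, APEX1, TYMSOS, small RNA genes inside members, and of each further list at most 8 genes with an adjusted p of at most 0.05; ENOSF1 and MIR16-1, outside that rule, were named after the values were seen.

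The alternatives were RLE factors, library size only, TMM from protein-coding genes, DESeq2 1.42.0, 2 other filters, a fold threshold of 0.75, the replicate number as a block, each library left out, and each sum without its most counted gene. The scripts were tested on simulated data. Replicate numbers showed no pairing of the libraries, which counting error could hide.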

Additional observations from a re-analysis of the deposited data

Results flagged for a closer look

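A library that stood far from the other 3 of its group was found for 5 of 76 groups of normalised levels examined. The cutoff gives about 1 in 20 by chance only for normally distributed values. Small and tied counts, as in several of these groups, do not meet that, so no chance rate is set beside the 5. MCM6 stood at 2.33 CPM (3 counts) in siAPEX1 replicate 4, against 0.705 to 0.805 CPM in the other siAPEX1 libraries. BRCA1 stood at 0.492 CPM (1 count) in siCTRL replicate 1, against 2.17 to 2.37 CPM. CCNA2 and CCNB2 were both highest in siCTRL replicate 4, at 3.25 CPM (6 counts) and 4.87 CPM (9 counts), against at most 0.492 and 1.81 CPM in the other siCTRL libraries. SMC2 stood at 7.05 CPM (10 counts) in siAPEX1 replicate 3, against 11.7 to 12.1 CPM. All 5 values rest on 10 counts or fewer.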

How the results depend on the processing

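The count of members called higher, 4 under TMM, was 4 with RLE factors, DESeq2, the stricter filter and the replicate block, 6 with TMM from protein-coding genes, 2 with library size only (CENPF and TOP2A) and 7 with every gene with a count. With a library left out it ran from 5 to 8, since other genes then passed the filter or the test; it was 7 without siCTRL replicate 2, 8 without siCTRL replicate 4 and 7 without siAPEX1 replicate 2. Members past both thresholds, 1 under TMM, numbered 0 with library size only, 4 with every gene with a count, 3 with a threshold of 0.75 and 2 to 4 with a library left out. No alternative called a member lower. With library size only the log2 ratio of the S phase sum was -0.017 and that of the G2 and mitosis sum 0.38; with a library left out they ran from 0.27 to 0.38 and from 0.66 to 0.76. RRM1 ran from -0.16 to 0.085 with a library left out and changed sign without siCTRL replicates 2 (0.020) and 4 (0.085) and without siAPEX1 replicates 2 (0.021) and 4 (0.072), and BUB3 with library size only (-0.10). Over all genes library size only gave 346 higher and 1917 lower, against 856 and 846, so 15.3% of calls were higher in place of 50.3%; the cause was not tested. DESeq2 called 582 higher and 541 lower. Same-numbered libraries did not deviate together (correlations from -0.04 to 0.00), and differently numbered ones ran from -0.04 to 0.04. No pairing was seen, but counting error at this depth could hide one. The replicate block called 4 members. Of 36 members, 24 had too few counts for the test.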
